A study of Mus musculus with 4 samples.

Results

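The Wnt pathway genes described here were the 45 protein-coding genes, of 21853 in the GENCODE M21 annotation, whose symbols name a Wnt ligand, a Frizzled receptor, Lrp5 or Lrp6, a Dishevelled, an Axin, beta-catenin, a TCF/LEF factor or a secreted Frizzled-related protein. By role they were 19 ligands, 12 receptors, 4 secreted antagonists, 6 cytoplasmic transducers and 4 nuclear transducers. Members were found by their symbols. The mark was H3K27ac, acetylated lysine 27 of histone H3, which is found at promoters and enhancers in use and was located by chromatin immunoprecipitation and sequencing (ChIP-seq). The tissue was the hippocampal layer of male B6CASTF1/J mice, a first-generation cross of C57BL/6 and CAST, at an age of 2 months. All 4 samples belonged to 1 group, without any treatment or control arm, and came from tissue pools C and D, each combined from 7 biosamples and run in 2 technical replicates on fragments between 200 and 600 bp. The files held no totals of reads, so the depth is unknown, and a promoter without a peak is one where none was detected at this depth.

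Wnt proteins are secreted, lipid-modified ligands that bind a Frizzled receptor together with the co-receptor Lrp5 or Lrp6. In the beta-catenin branch the bound receptors act through Dishevelled on a destruction complex built on Axin, so that beta-catenin escapes degradation, enters the nucleus and activates genes together with TCF/LEF factors; other branches steer cell polarity and calcium. In the embryo Wnt signals from the edge of the cortex are needed for the hippocampus to form, and in the adult the pathway is known for its part in dentate neurogenesis, dendrites and synapses.

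Sequences under the strongest promoter peaks of 4 roles are shown first, because the density of CG dinucleotides is one of the features by which the marked members are described below. For the leading ligand, receptor, cytoplasmic transducer and nuclear transducer, and for Lef1, the bases around the summit of the strongest promoter peak, to the same length each, were read from the plus strand of the GRCm38 (mm10) genome, with every CG in capitals. Where that window overlapped an annotated untranslated region it was moved along the peak to the nearest stretch without one. This was the case for Axin2, by 47 bp, and for Lef1, by 384 bp, so the Lef1 window does not hold its summit.
Wnt7b at chr15:85576769-85576969: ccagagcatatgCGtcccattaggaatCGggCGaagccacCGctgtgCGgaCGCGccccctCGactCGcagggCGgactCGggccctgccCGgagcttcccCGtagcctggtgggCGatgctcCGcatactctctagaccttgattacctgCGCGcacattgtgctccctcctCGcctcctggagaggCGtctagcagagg
Lrp6 at chr6:134567045-134567245: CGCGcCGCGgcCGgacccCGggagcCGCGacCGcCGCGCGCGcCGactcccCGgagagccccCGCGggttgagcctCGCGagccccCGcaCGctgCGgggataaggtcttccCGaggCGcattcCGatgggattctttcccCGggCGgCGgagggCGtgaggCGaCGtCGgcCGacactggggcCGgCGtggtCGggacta
Axin2 at chr11:108920562-108920762: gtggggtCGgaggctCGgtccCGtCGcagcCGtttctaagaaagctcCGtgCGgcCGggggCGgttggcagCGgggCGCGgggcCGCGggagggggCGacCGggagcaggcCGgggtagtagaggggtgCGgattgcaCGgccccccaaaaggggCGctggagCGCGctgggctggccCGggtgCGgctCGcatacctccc
Tcf7l2 at chr19:55742434-55742634: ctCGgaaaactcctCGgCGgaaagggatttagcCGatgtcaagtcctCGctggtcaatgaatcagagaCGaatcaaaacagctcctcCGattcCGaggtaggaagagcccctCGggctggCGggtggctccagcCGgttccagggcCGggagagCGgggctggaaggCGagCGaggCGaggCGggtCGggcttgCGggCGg
Lef1 at chr3:131111472-131111672: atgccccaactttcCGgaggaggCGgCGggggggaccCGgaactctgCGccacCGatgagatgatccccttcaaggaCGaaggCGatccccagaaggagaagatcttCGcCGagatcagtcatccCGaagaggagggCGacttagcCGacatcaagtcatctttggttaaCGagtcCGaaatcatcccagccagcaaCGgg
The Lrp6 window held 36 CG, the Axin2 window 25, the Tcf7l2 window 20, the Wnt7b window 19 and the Lef1 window 16. The Lef1 window, which lies off its summit, was thus the poorest in CG of the 5, and the Lrp6 window the richest. The Lef1 window opens with the start codon and reads as protein-coding sequence, and the first part of the Tcf7l2 window reads as coding too. The windows are therefore of unlike kinds, and their CG counts only describe the printed stretches.

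Each of the 45 genes was then scored as marked when a peak of the replicated list, the list drawn from both pools with 88930 peaks, lay within 1 kb of any of its coding transcription start sites (TSSs). By this rule 27 of 45 Wnt pathway genes were marked (60.0%), against 60.8% of all coding genes. As a whole the Wnt pathway genes were therefore marked at about the rate of all coding genes, and the roles differed. Among genes with CpG-rich promoters, defined below, 66.67% of members were marked, against 91.6% of coding genes. The marked genes were 6 of 19 ligands, 10 of 12 receptors, 1 of 4 secreted antagonists, all 6 cytoplasmic transducers and all 4 nuclear transducers. The machinery that receives and passes on a Wnt signal was thus marked throughout, apart from Fzd9 and Fzd10, while most ligand genes were not. All 12 receptors and all 10 transducers had CpG-rich promoters, and 91.6% of coding genes with such promoters were marked. The receptors, at 83.33%, did not exceed that share. The counts by role are over small classes, and genes are not replicates, so no test was made between roles. In bulk tissue, fewer cells carrying a mark and less mark per cell cannot be told apart.

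The pools gave nearly the same picture one by one. By the pool C list 26 members were marked, against 61.4% of all coding genes, and by the pool D list 24, against 57.1% of all coding genes. The list called on both pools together marked 28 members, against 61.7% of all coding genes, the addition being Wnt2 with a signal of 3.01. The 24 members marked in pool D were all among those marked in pool C and in the replicated list. Fzd5 and Wnt9a were marked in pool C but not in pool D, which is 2 of 45 members, against 4.41% of all coding genes. No member was marked in pool D and not in pool C. Wnt11 was marked in the replicated list but in neither pool list.

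How strong a promoter peak was is given by its signal, a value per peak that is the authors' own and is used here only within a list, to describe and to rank. The strongest promoter peak of the 27 marked members had a median signal of 8.10, against 13.76 for the 13290 marked coding genes. Only 6 marked members lay above that median of all marked coding genes. They were Axin2, Lrp6, Dvl2, Dvl1, Fzd8 and Fzd3, and Fzd4 lay at it. The percentile rank among marked coding genes, where 100 is the strongest, had a median of 21.2 over the marked members, so most marked Wnt promoters carried weak peaks for a marked gene. By role the median signal of marked members was 16.04 in cytoplasmic transducers, 10.17 in receptors, 6.25 in ligands and 6.10 in nuclear transducers. In the replicated list all 6 cytoplasmic transducers and 6 of the 10 marked receptors had stronger promoter peaks than any ligand. In both pool lists, however, Wnt7b exceeded Axin1 and Fzd6, and in pool D it exceeded Ctnnb1 too.

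**Figure D1:**
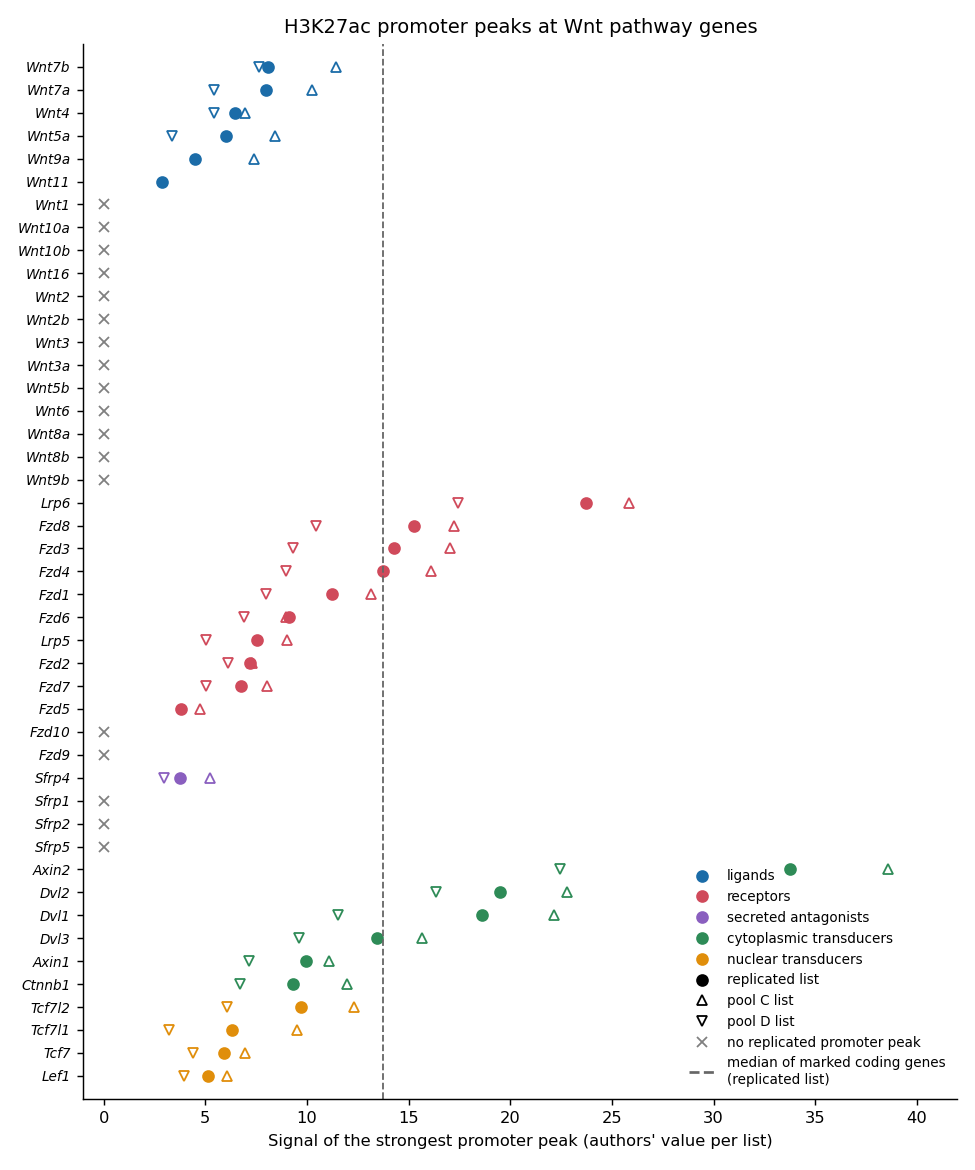
Signal of the strongest H3K27ac promoter peak of each of the 45 Wnt pathway genes (x axis, authors' value, on no common scale between lists), in the replicated list (filled circles), pool C (upward triangles) and pool D (downward triangles), grouped by role; crosses mark genes without a replicated promoter peak. Axin2 stands alone on the right at 33.77, 13 of 19 ligands are crosses, and every marked ligand lies left of the dashed line, the median of 13.76 over marked coding genes.

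The plot of promoter signal by gene shows this order within each role. The signal of all 27 marked members was the same in the replicated list and in the list of both pools together, so only the replicated value and the 2 pool values are given for each gene.

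Among the ligands, Wnt7b led with a signal of 8.10 in the replicated list, 11.43 in pool C and 7.66 in pool D, at percentile 21.2. Wnt7b and Wnt7a are known for acting on dendrites and synapses of hippocampal neurons and on the vessels of the brain. The strongest Wnt7b peak, chr15:85574888-85578737, had its summit 4.71 kb inside the gene and ran over the start of transcript Wnt7b-204. A peak at the main TSS (that of the principal coding transcript) reached 7.75, so both starts were marked to a similar degree. Wnt7a followed with 7.98 in the replicated list, 10.26 in pool C and 5.45 in pool D, under a peak of 2106 bp that spans its only annotated coding TSS. Wnt4 had 6.48 in the replicated list, 6.97 in pool C and 5.45 in pool D. Wnt5a, best known for signalling without beta-catenin, had 6.01 in the replicated list, 8.41 in pool C and 3.36 in pool D. All 4 of these ligands were thus found in both pools, at percentile 12.6 to 21.2 of marked coding genes.

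The other marked ligands were less certain. Wnt9a had 4.51 in the replicated list and 7.38 in pool C, with no promoter peak in pool D. A stronger Wnt9a peak of 7.98, with its summit 3.24 kb inside the gene, was present in both pools. Wnt11, another ligand known for beta-catenin-independent signalling, had the weakest promoter peak of all marked members, with a signal of 2.89 and a −log10 q of 4.67. That 350 bp peak lay at the start of transcript Wnt11-205, 3714 bp downstream of the main TSS, and no peak lay at the main TSS. Of 9 other settings that were tried, 5 left Wnt11 without a mark, so its call rests on 1 marginal peak.

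The 13 ligands without a replicated promoter peak were Wnt1, Wnt2, Wnt2b, Wnt3, Wnt3a, Wnt5b, Wnt6, Wnt8a, Wnt8b, Wnt9b, Wnt10a, Wnt10b and Wnt16. They include Wnt2b, Wnt3a and Wnt8b, which are known from the embryonic edge of the cortex from which the hippocampus is patterned. Of these 13, only Wnt2b and Wnt10a had any replicated peak within 10 kb of the main TSS. The Wnt2b peak, with a signal of 5.45 and its summit 6.06 kb upstream, was found in pool C and not in pool D. Wnt3 held 2 non-promoter peaks in its gene body, the stronger with a signal of 4.37. The body of Wnt5b holds the promoter of Fbxl14, whose peak of 21.37 therefore belongs to that gene and was not counted for Wnt5b.

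Several ligand genes lie next to each other, and these pairs differed. Wnt3a and Wnt9a lie 16.2 kb apart between their main TSSs on chromosome 11, and 5 replicated peaks overlapped the stretch from the first to the last base of the pair, up to a signal of 7.98; the promoter peak was that of Wnt9a. Wnt3 and Wnt9b, 24.3 kb apart, had 2 peaks up to 4.37. Wnt6 and Wnt10a, 19.6 kb apart, had 2 peaks up to 4.66. Wnt1 and Wnt10b, 11.7 kb apart, had no replicated peak at all. No promoter of these last 3 pairs was marked.

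Among the receptors Lrp6, the co-receptor phosphorylated when Wnt binds, carried the strongest promoter peak, with 23.71 in the replicated list, 25.85 in pool C and 17.41 in pool D, at percentile 88.7. Its peak, chr6:134565559-134567695, spanned the TSS. Fzd8 had 15.27 in the replicated list, 17.23 in pool C and 10.44 in pool D, at percentile 58.0. Fzd3, a Frizzled needed for axon tracts, had 14.28 in the replicated list, 17.05 in pool C and 9.32 in pool D, with the start of Fbxo16 within 10 kb. These were the only receptors above the median of marked coding genes. Fzd4, the receptor of norrin in vessels, had 13.76 in the replicated list, 16.08 in pool C and 8.98 in pool D, under a wide peak of 3211 bp.

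The remaining marked receptors ran from 11.22 to 3.82 in the replicated list, in the order Fzd1, Fzd6, Lrp5, Fzd2, Fzd7 and Fzd5. Fzd1 had 11.22 in the replicated list, 13.13 in pool C and 7.97 in pool D. Fzd2 had 7.19 in the replicated list, 7.30 in pool C and 6.14 in pool D. The co-receptors stood apart, with Lrp6 at 23.71 and its paralog Lrp5 at 7.52. Lrp5 had 9.03 in pool C and 5.03 in pool D. Fzd6 had 9.13 in the replicated list, 8.96 in pool C and 6.92 in pool D. Fzd7 had 6.77 in the replicated list, 8.03 in pool C and 5.03 in pool D. All 3 were marked in both pools. Fzd5 had 3.82 in the replicated list and 4.72 in pool C and was not marked in pool D, so it was the weakest of the marked receptors.

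Fzd9 and Fzd10 had no promoter peak in any list. Fzd9, a receptor known from the developing hippocampus, had a replicated peak of 6.36 with its summit 7.61 kb upstream of its TSS, present in both pools. The nearest replicated peak to Fzd10 lay 86.9 kb away.

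Secreted Frizzled-related proteins bind Wnt ligands outside the cell. Of the 4 genes with Sfrp symbols only Sfrp4 was marked, with 3.76 in the replicated list, 5.24 in pool C and 2.97 in pool D, at percentile 3.52. A far stronger peak of 20.63, whose summit lay 3.65 kb upstream, belonged to the promoter of the neighbouring gene Epdr1. Sfrp1, Sfrp2 and Sfrp5 had no replicated peak within 10 kb of their TSSs. Frzb, which encodes a protein of the same family but is not a member by its symbol, was marked with 8.41 in the replicated list, 10.5 in pool C and 7.73 in pool D. The nearest replicated peak to Sfrp2 was 213 kb away, the longest such distance among the 18 unmarked members, for which the median was 31.1 kb and the shortest, at Wnt2b, 5.80 kb.

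The cytoplasmic transducers held the strongest promoter of all members. Axin2, a scaffold of the destruction complex and a widely used feedback target of beta-catenin, had 33.77 in the replicated list, 38.56 in pool C and 22.44 in pool D, at percentile 98.4. Its promoter peak, chr11:108920354-108924144, was 3791 bp wide and began 5 bp downstream of the TSS. The paralog Axin1 had 9.95 in the replicated list, 11.08 in pool C and 7.13 in pool D, at percentile 30.3, so the paralogs stood far apart. The 3 Dishevelled genes, whose products link Frizzled to the destruction complex, lay between them. Dvl2 had 19.49 in the replicated list, 22.81 in pool C and 16.37 in pool D. Dvl1 had 18.62 in the replicated list, 22.15 in pool C and 11.54 in pool D. Dvl3 had 13.46 in the replicated list, 15.66 in pool C and 9.62 in pool D. Dvl2 and Dvl1 thus lay above the median of marked coding genes, and Dvl3 just below it. Ctnnb1, which encodes beta-catenin, had the lowest value of the class in the replicated list, with 9.32, and in pool D, with 6.71. Its 11.98 in pool C lay above the 11.08 of Axin1.

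All 4 nuclear transducers were marked in both pools, below the median of marked coding genes. Tcf7l2 led with 9.72 in the replicated list, 12.31 in pool C and 6.08 in pool D, at percentile 29.1. It is also known as a marker of the thalamus, whose other markers are given at the end. Tcf7l1, which acts mainly as a repressor, had 6.31 in the replicated list, 9.52 in pool C and 3.20 in pool D. Tcf7 had 5.90 in the replicated list, 6.97 in pool C and 4.40 in pool D. Lef1, required in mice for the dentate gyrus to form, had 5.15 in the replicated list, 6.07 in pool C and 3.96 in pool D. The 4 factors that bind the same DNA letters thus ran in the order Tcf7l2, Tcf7l1, Tcf7, Lef1 in the replicated list and in pool C, while in pool D Tcf7l1 was the lowest.

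The members had 101 annotated coding TSSs, of which 63 were marked (62.4%), against 60.6% of the coding TSSs of all coding genes. Of the 19 marked members with more than 1 coding TSS, 6 held at least 1 unmarked one (31.6%), against 37.5% of such marked coding genes, so neither share stood far from the background. The 6 were Wnt11, Ctnnb1, Sfrp4, Wnt5a, Axin1 and Tcf7l2. All 8 coding TSSs of Tcf7l2 within 449 bp of the main TSS were marked, whereas 3 starts 152265, 153241 and 156284 bp downstream were not. In Ctnnb1 the most upstream start, 4184 bp before the main TSS, was unmarked. The starts of Ctnnb1 at 22057 and 22514 bp downstream had a peak of 3.12, against 9.32 at the main TSS.

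The acetylated length around each gene was counted as the bases in replicated peaks within 10 kb of the main TSS. In all, 30 of 45 members had any such peak (66.7%), against 66.9% of all coding genes, so again the members as a whole did not depart from the background. The median over the 45 members was 1964 bp, against 1495 bp over all coding genes. By the pool D list alone it was 1045 bp, against 999 bp, and by the pool C list 2080 bp, against 1525 bp. With only peaks above the median signal the member median was 1188 bp, against 1323 bp over all coding genes. The direction thus depends on that minimum. By role the median was 2656 bp for receptors, 2561 bp for cytoplasmic transducers and 2839 bp for nuclear transducers, and 0 bp for ligands and for secreted antagonists. Within 25 kb the ligand median was 2358 bp, against 2570 bp over all coding genes, so the low ligand value depends on the window. In the pool D list alone, within 10 kb, the medians were 1652 bp for receptors and 1674 bp for nuclear transducers, against 999 bp over all coding genes. No acetylated base was found for 11 of 19 ligands, 3 of 4 secreted antagonists and 1 of 12 receptors. The mean signal over the same window, counting bases outside peaks as 0, had a median of 0.587 over the members, against 0.685 over all coding genes. Within 2 kb the medians were 2.022 over the members and 1.998 over all coding genes, and within 25 kb 0.5277 and 0.5167, so this direction turned with the window.

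**Figure D2:**
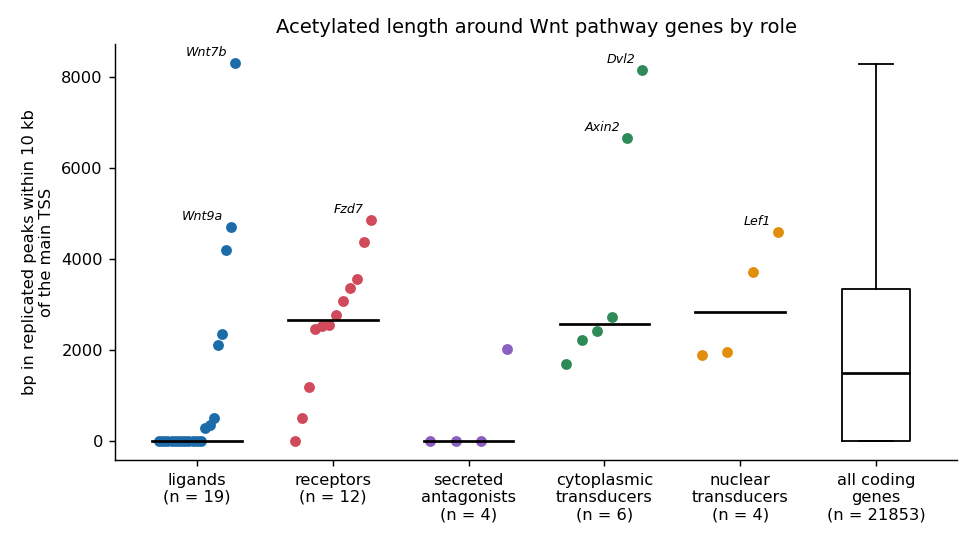
Bases in replicated H3K27ac peaks within 10 kb of the main TSS (y axis) for each Wnt pathway gene by role. Bars mark the role medians. The box beside them gives the quartiles and median of all coding genes. Its whiskers span most coding genes, from a low to a high percentile, and genes beyond them are not drawn. The ligands split into Wnt7b at 8299 bp, a few genes between 2109 and 4696 bp and a row at 507 bp or less, while no transducer lies below 1701 bp.

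As the plot of acetylated length by role shows, a few ligands reached the values of the transducers. Wnt7b had 8299 bp in the replicated list, 8145 bp in pool C and 4238 bp in pool D, and 4.96% of coding genes had more in the replicated list. Dvl2 had 8139 bp in the replicated list, 8635 bp in pool C and 5886 bp in pool D, with the starts of Gabarap and Phf23 inside its window. Axin2 had 6649 bp in the replicated list, 6953 bp in pool C and 3098 bp in pool D. Axin2 and Wnt7b had no other coding TSS within 10 kb, so their length, unlike that of Dvl2, was not shared with a neighbouring promoter. Next came Fzd7 with 4848 bp, Wnt9a with 4696 bp, Lef1 with 4592 bp, Fzd4 with 4361 bp and Wnt7a with 4199 bp. Length and promoter signal therefore did not go together in every member. Wnt9a and Lef1 had long acetylated stretches with weak promoter peaks, and Lrp6 had 2514 bp with a strong one. Lef1 owed part of its length to 2 peaks upstream, of 4.05 and 5.75, with summits 4.73 and 4.06 kb before its TSS, each found in both pools.

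Within the genes, 77 replicated peaks lay outside any promoter in the bodies of 20 of 45 members (44.4%), against 36.5% of all coding genes. The median gene length was 20.8 kb over the members and 17.4 kb over all coding genes, and its part in that share was not tested. Of the 77 peaks, 64 overlapped a peak of pool C and 35 a peak of pool D. Lrp6 had the most, with 13 (10 of them in pool C and 6 in pool D), the strongest at 8.21 in intron 3, with its summit 53.2 kb from the TSS. Axin2 had 9 (8 in pool C and 4 in pool D), led by a peak of 12.61 in intron 4, with its summit 21.5 kb from the TSS. A further Axin2 peak of 13.42 had its summit 2.34 kb upstream. Both of these Axin2 peaks were stronger than the promoter peak of any ligand.

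Wnt7a and Lrp5 had 8 body peaks each, up to 6.46 in Wnt7a, 31.6 kb from its TSS, and up to 5.85 in Lrp5, 17.0 kb from its TSS. Tcf7l2 and Fzd6 had 6 each. The strongest of Tcf7l2 reached 6.82 in intron 4, 95.8 kb from the main TSS, and the strongest of Fzd6 reached 4.86. Wnt7b had 5, up to 6.36. Wnt4 and Tcf7l1 had 3 each, and a peak of 6.36 in intron 3 of Tcf7l1, 77.3 kb from its TSS, was as strong as its promoter peak of 6.31.

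**Figure D3:**
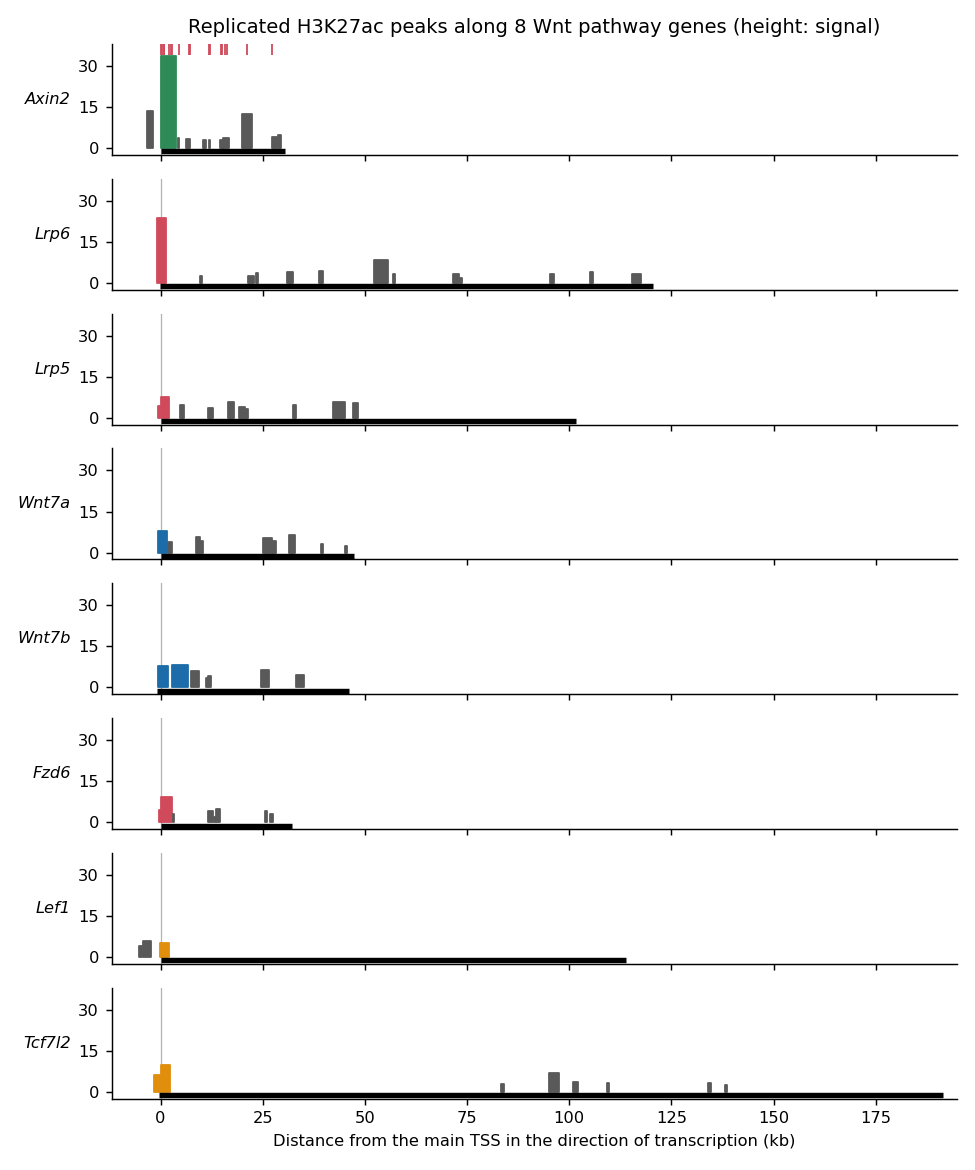
Replicated H3K27ac peaks along 8 Wnt pathway genes, by distance from the main TSS in the direction of transcription in kb (x axis) and signal (y axis, authors' value); coloured bars are promoter peaks, grey bars other peaks, the black line the gene, and red ticks above Axin2 the TCF/LEF letter matches in its peaks (drawn for Axin2 only). Axin2 and Lrp6 rise to 33.77 and 23.71 at the start, Lef1 has its only other peaks upstream, and Tcf7l2 has no further peak until 83.7 kb.

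Over all loci, the width, signal and pool support of the members' peaks were set beside those of all peaks of the same class. The 41 promoter peaks of members had a median width of 1335 bp and a median signal of 6.77, against 1447 bp and 10.72 for all 17280 promoter peaks. Of them 95.1% were found in pool C and 73.2% in pool D, against 96.3% and 85.8% of all promoter peaks. The 86 other peaks of members had a median width of 827.5 bp and a median signal of 3.76, against 856 bp and 3.91 for all 71650 other peaks. Of these 83.7% were found in pool C and 47.7% in pool D, against 81.2% and 48.2% of all other peaks. The promoter peaks of members were thus lower in median signal and in their share in pool D than promoter peaks in general, and the other peaks were close to the rest; no test was made of these differences.

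The CpG content of the promoter had no part in choosing the members. It was measured as the observed over expected number of CG within 500 bp of the main TSS, and 0.6 or more was called CpG-rich. Of the 45 members 39 were CpG-rich (86.67%), against 47.59% of all coding genes. Of these 39, 26 were marked (66.67%), against 91.6% of CpG-rich coding genes. CpG-rich members without a mark numbered 13, and 11 of these had no replicated peak within 10 kb. The 13 were the ligands Wnt2, Wnt2b, Wnt3, Wnt3a, Wnt5b, Wnt6, Wnt9b and Wnt10b, the receptors Fzd9 and Fzd10, and the antagonists Sfrp1, Sfrp2 and Sfrp5. Sfrp1 with a ratio of 1.04 and Wnt5b with 1.00 were as rich in CpG as Lrp6 with 1.02, which ranked at percentile 88.7. Of 14 CpG-rich ligands 6 were marked (42.86%), whereas 10 of 12 CpG-rich receptors (83.33%) and all 10 CpG-rich transducers were.

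Only 6 members were CpG-poor, and 1 of them, Sfrp4 with a ratio of 0.53, was marked, against 32.9% of CpG-poor coding genes. The other CpG-poor members were Wnt1, Wnt8a, Wnt8b, Wnt10a and Wnt16. In the plot of CpG ratio against signal the unmarked members therefore lie on both sides of 0.6.

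**Figure D4:**
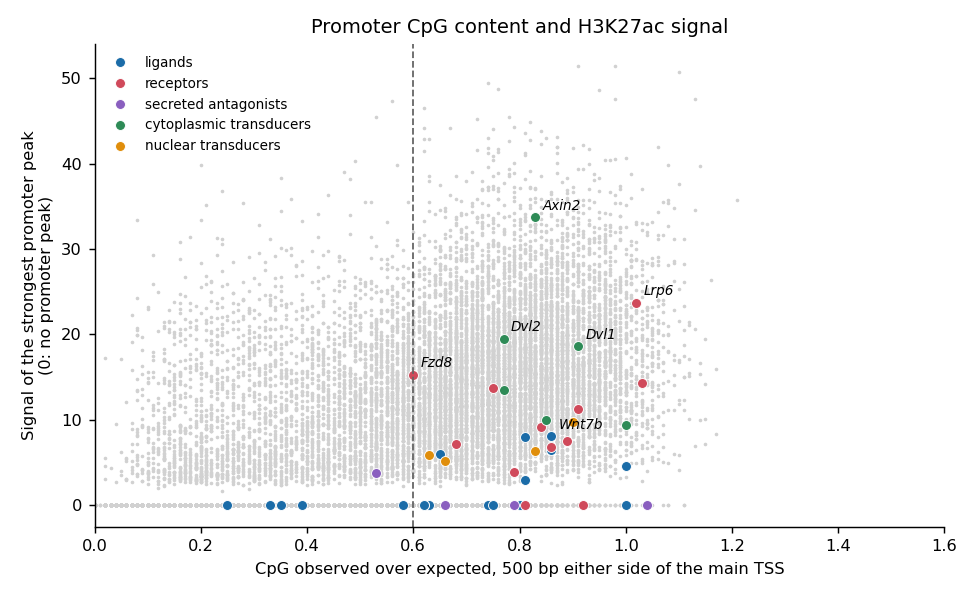
CpG observed over expected within 500 bp of the main TSS (x axis) against the signal of the strongest promoter peak (y axis, authors' value, 0 where there is none) for Wnt pathway genes by role, over all coding genes in grey. Right of the dashed line at 0.6 lie 26 marked and 13 unmarked members, and Axin2 is the highest of the 45 at 33.77.

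TCF/LEF factors bind letters close to CTTTGAT or CTTTGAA, which on the other strand read ATCAAAG and TTCAAAG. These 2 words were sought on both strands in 300 bp windows at peak summits; a match is a description of letters, not a bound site. Of the 41 member promoter peaks, 2 held a match (4.88%), against 5.53% of all promoter peaks. Of the 86 other member peaks, 7 did (8.14%), against 11.5% of all other peaks. Per kb of whole peak, matches numbered 0.280 in member promoter peaks, against 0.319 in all promoter peaks, and 0.311 in other member peaks, against 0.432 in all other peaks. By these measures the members as a whole did not exceed all peaks. With 500 bp windows, however, 6 of 41 member promoter peaks held a match (14.6%), against 9.25% of all promoter peaks, so the direction at promoters depends on the window. In the RefSeq promoter windows (GRCm38.p6; 250 bases before to 50 after a start), which matched 32 of the 45 members with 41 windows, 2 windows held a match (4.88%), against 8.65% of all 32851 windows.

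Axin2 held more of these letters than the other members. Its 11 peaks, with 14552 bp in all, held 18 matches, or 1.24 per kb. The 7 matches in its promoter peak gave 1.85 per kb, and the other member promoter peaks held 0 to 2 matches each. Over all 17280 promoter peaks, windows of the same 3791 bp held a median of 1 match, and 18 windows (0.104%) held 7 or more; this background was computed after the Axin2 matches had been seen. Lef1, Tcf7 and Wnt7b held no match in any of their peaks, and Tcf7l2 held 3. The 7 matches in the Axin2 promoter peak, lying 0.081, 0.444, 0.886, 0.906, 2.07, 2.63 and 2.73 kb downstream of the TSS, are printed with 10 bases on either side, plus strand of GRCm38, the match in capitals.
Axin2 at chr11:108920417-108920443: gccggctgcgCTTTGATaaggtcctgg
Axin2 at chr11:108920780-108920806: cggctcgcgcCTTTGAAgtgcacagtt
Axin2 at chr11:108921222-108921248: ggccggcgcgCTTTGATgtgcggggcg
Axin2 at chr11:108921242-108921268: cggggcggcgCTTTGAAgttggcaggc
Axin2 at chr11:108922406-108922432: aagtttgaagATCAAAGcctctaagtt
Axin2 at chr11:108922962-108922988: cagatttcgcCTTTGAAaaagctgcgt
Axin2 at chr11:108923062-108923088: tactttcttgCTTTGATgttgggtaga
Of these 7, 6 read CTTTGAT or CTTTGAA on the plus strand, which is the strand of the gene, and 1 read ATCAAAG. The third and the fourth lay close enough for their printed stretches to overlap.

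Outside promoters, the match nearest the summit of the strongest peak with a match is shown for the 8 members where that peak was strongest, in order of signal from Axin2 at 12.61 to Lrp6 at 3.87. The stretches of Axin2, Tcf7l2, Lrp5, Wnt3, Wnt7a and Lrp6 are intronic, whereas those of Wnt9a and Fzd7 fall in the untranslated end of the transcript.
Axin2 at chr11:108941575-108941601: tgacaacagtCTTTGAAgattttctac
Tcf7l2 at chr19:55838943-55838969: gtcttagaagCTTTGAAagggctgttg
Lrp5 at chr19:3643011-3643037: agctcctgagTTCAAAGgacaggcgtg
Wnt9a at chr11:59333268-59333294: gccagagcctCTTTGATcttcttctat
Fzd7 at chr1:59486024-59486050: agcaggctggCTTTGAActcacagaca
Wnt3 at chr11:103808691-103808717: ggggcccagtCTTTGATgtagacatgt
Wnt7a at chr6:91401068-91401094: tccaggtggtTTCAAAGcaggacccag
Lrp6 at chr6:134535381-134535407: agaggccccaCTTTGAAttcgacaaat
Each stretch holds a single such word, and a window without the word says nothing of whether a TCF/LEF factor is there.

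The wider pathway was then set beside the 45 genes, in 8 lists by function, of which the targets list shares genes with others. Each count is set beside the 60.8% of all coding genes that were marked. The lists differed in promoter type, from 53.33% CpG-rich genes in the antagonists to 88.89% in ligand secretion, against 47.59% of all coding genes. Of CpG-rich coding genes 91.6% were marked, so shares near that value are near the background of such genes. The part of promoter type in the differences between lists was not tested. Ligand secretion was marked at 9 of 9 genes, led by Snx3 at 29.21 and Vps35 at 24.50, parts of the sorting machinery that recycles the ligand carrier Wls. The Vps35 peak also holds the start of Orc6. This list includes Notum at 5.78, which encodes a secreted enzyme that inactivates Wnt proteins by removing their lipid. Notum was counted here and not among the antagonists. Porcn, the enzyme that attaches the lipid to Wnt proteins, reached 16.77, and Wls 9.48. The R-spondin branch, which protects receptors from removal, was marked at 5 of 9 genes (55.56%), near the background, led by Rspo3 at 12.26 and Lgr4 at 11.66. Its unmarked genes were Rspo1, Rspo2, Rspo4 and Lgr5, so 1 of the 4 R-spondin ligands was marked. The enzymes that remove receptors were Znrf3 with 7.40 and Rnf43 with 3.51.

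Secreted and membrane antagonists outside the 45 members, Frzb among them, were marked at 5 of 15 genes (33.33%), led by Kremen1 at 10.11 and Dkk3 at 9.37. The unmarked ones were Dkk1, Dkk2, Dkk4, Dkkl1, Wif1, Sost, Kremen2, Draxin, Shisa2 and Shisa3. Of the genes of the destruction complex and its regulators, 20 of 21 were marked, with a median signal of 22.12. Apc, another scaffold, reached 34.95 and the kinase Gsk3b 32.93, and the only unmarked gene was Nkd2. Nuclear cofactors were marked at all 21 genes, led by the acetyltransferase Ep300 at 38.95 and by Cby1 at 35.84, whose peak also holds the start of Fam227a. The cofactor list also holds Tcf4 at 24.96, which encodes an E-protein and not a TCF/LEF factor. Its value is part of the count and of the median percentile of that list. The genes of both lists had stronger peaks than most of the 45 members, since the median percentile was 85.2 for the destruction complex and 71.5 for the cofactors, against 21.2 for the marked members.

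**Figure D5:**
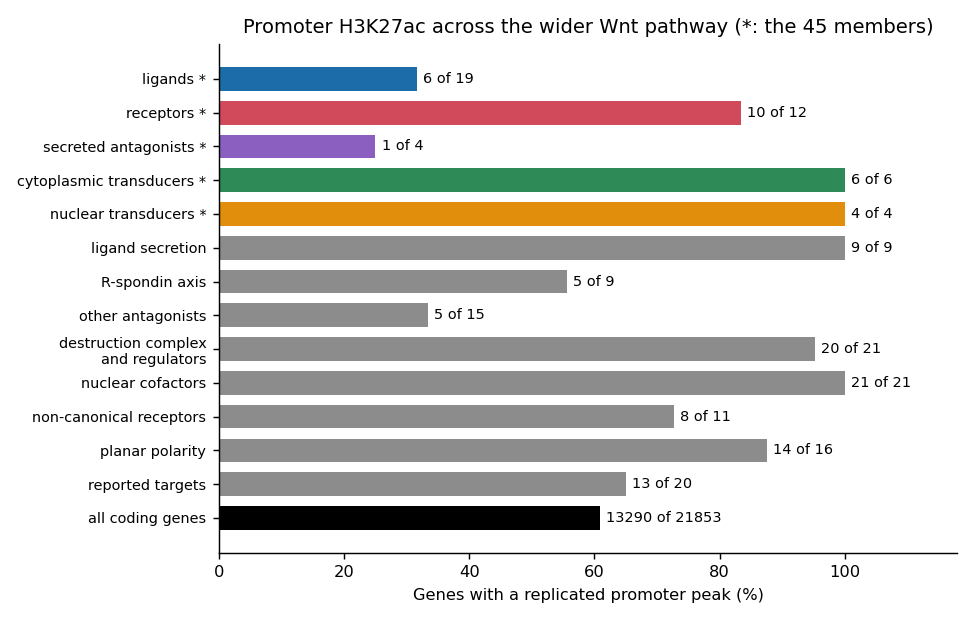
Share of genes with a replicated promoter peak (x axis, %) in the 5 roles of the 45 Wnt pathway genes (coloured, starred) and in 8 wider lists (grey), above all coding genes (black, 60.8%). Ligands and both sets of antagonists end at 33.33% or less, while transducers, ligand secretion and nuclear cofactors reach 100%.

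Other receptors and their partners, a list that holds the secreted norrin gene Ndp at 7.63, were marked at 8 of 11 genes (72.73%), led by Ryk at 14.57 and Gpc4 at 11.91, with Ror2, Musk and Gpc3 unmarked. Adgra2 with 9.72 and Reck with 11.80, which together let vessels respond to Wnt7a and Wnt7b, were both marked. The planar polarity branch was marked at 14 of 16 genes, led by the GTPase Rhoa at 28.27 and by Invs at 19.42, with Prickle3 and Prickle4 unmarked. Of 20 genes reported as targets of beta-catenin in various tissues, 13 were marked (65.0%), against 60.8% of all coding genes. The highest were Jun at 24.31 and Tnfrsf19 at 18.62, and the unmarked ones were Sp5, Lgr5, Dkk1, Cd44, Bmp4, Cdx1 and T. The targets known from the dentate lineage were Neurod1 with 16.00 and Prox1 with 12.10. The bar plot of the wider lists shows all of these shares beside those of the 5 roles.

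Marker lists of cell types and regions were scored in the same peaks, again beside the 60.8% of all coding genes that were marked. No other brain region was at hand for comparison, so these lists cannot test the tissue label. All 8 markers of hippocampal excitatory neurons were marked, with signals of 9.42 to 28.80, and so were all 6 of astrocytes and all 6 of oligodendrocytes. Markers of oligodendrocyte precursors, microglia, endothelial cells and fibroblasts were marked at 3 of 5, 3 of 5, 5 of 6 and 3 of 5 genes, and those of Cajal-Retzius cells at 2 of 5, neither of them in pool D. Of 6 choroid plexus markers 3 were marked, with Folr1, Aqp1 and Otx2 unmarked. Of 6 markers of thalamus and habenula, 4 were marked in both pools, namely Rora at 13.12, Lhx9 at 10.02, Tcf7l2 itself and Prkcd at 4.91, with Gbx2 and Pou4f1 unmarked. Lists marked at 3 of 5, 3 of 6 or 4 of 6 genes lie near the background, so nothing is read from them about which cells were present. The part of each cell type or neighbouring region in the marks of the Wnt genes was not tested.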

How the data were processed

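H3K27ac ChIP-seq peaks of 4 samples (1 group, pools C and D) were deposited by the authors as 4 narrowPeak lists on build mm10, per the labels: a replicated list of 88930 peaks, a list of both pools together (102643), and lists of pool C (94836) and pool D (63623). The aligner, the peak caller and the scaling were not given in the sources used here. Signal and −log10 p and −log10 q per peak are the authors' deposited values; summits are distances from the peak start.

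Genes and coding TSSs came from GENCODE M21, and sequence from GRCm38.p6. No peak ended beyond its chromosome. Strain variants were not analysed here. A gene was marked when a peak overlapped the stretch within 1 kb of any coding TSS. Acetylated length and summed signal were taken within 10 kb of the main TSS, that of the principal basic transcript with the longest coding sequence. A peak had pool support when any base overlapped a pool peak. The scoring was tested on simulated data with known answers. With 1 group, no statistical test was made; the pools are the replicates, and the lists share samples.

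Full values were given for the 3 strongest members per role, those marked in 1 pool list, the 8 with the most acetylated bases and the 8 with the most body peaks, and, for wider lists, for the 2 strongest and the unmarked genes. Other genes were named after their values were seen. The promoter sequence of the leading secreted antagonist is not reported here. The members and lists were chosen with earlier results of these data known. Python 3.11.15, numpy 2.4.6, pandas 2.3.3, matplotlib 3.10.9 and pysam 0.24.0 were used.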

Additional observations from a re-analysis of the deposited data

How the results depend on the processing

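The number of marked members was 24 to 28 under 9 alternatives, against 27, and the share of all coding genes 53.4% to 62.3%, against 60.8%. All cytoplasmic and nuclear transducers stayed marked under each of them. A minimum −log10 q of 5 lost Wnt11; peaks with a signal above the median lost Fzd5, Sfrp4 and Wnt11, so no secreted antagonist was left (0 of 4); the main TSS alone, chosen after seeing the data, lost Wnt11. TSS windows of 500 bp and 2.5 kb and leaving out shared promoter peaks changed no member's call, though the last left 27 of 45 members (60.0%), against 53.4% of all coding genes. With each pool list alone the marked members were 24 to 26, the ligands 4 to 5 and the receptors 9 to 10. In pool D the median acetylated length was 1045 bp, against 999 bp over all coding genes. In pool C it was 2080 bp, against 1525 bp. Pool D alone lost Fzd5, Wnt11 and Wnt9a. The median acetylated length of the members was 1188 bp with signals above the median, against 1323 bp over all coding genes, and 2880 bp within 25 kb, against 2570 bp, where the main values were 1964 and 1495 bp. The median of the mean signal was 2.022 within 2 kb, against 1.998 over all coding genes, and 0.5277 within 25 kb, against 0.5167, both turning the direction within 10 kb (0.587 against 0.685); with each pool list alone it was 0.267 to 0.727. The median percentile of marked members was 23.0 to 26.8 with each pool list alone and 23.9 with the main TSS alone, against 21.2. With CTTTGAT alone 0 of 41 member promoter peaks (0.0%) held a match, against 2.15% of all promoter peaks. In 500 bp windows 14.6% of member promoter peaks did, against 9.25% of all promoter peaks, and 18.6% of the other member peaks did, against 18.9% of all other peaks. The cause of these moves was not tested. No paired analysis was possible because all samples formed 1 group. Depth is unknown, so for weak promoters such as those of Wnt2, Wnt11 and Fzd5 a missing peak cannot be told apart from too few reads.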
